A study of Mus musculus with 2 samples.

Results

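The miR-297, miR-466, miR-467 and miR-669 names are rodent miRNAs whose genes lie mostly in a tandem array inside Sfmbt2, a Polycomb-related gene. They were taken from the count tables by number, with any letter, locus number or arm, and 70 of the 1477 miRNA names belonged to them. All 70 were counted in replicate 1 and 68 in replicate 2. The 70 names comprised 4 of miR-297, 25 of miR-466, 13 of miR-467 and 28 of miR-669.

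The libraries were 2 replicates of 1 group. Both came from cultured keratinocytes of mouse skin in low-calcium medium, which carried an exogenous desmoplakin-BirA fusion (genotype given as Dsp-BirA) and received biotin. BirA attaches biotin to proteins near the fusion, desmoplakin is a protein of the desmosome, and RNA was recovered with the labelled proteins on streptavidin beads after RNase treatment of the lysate. Neither the way the fusion was introduced, nor its promoter, nor the number of clones or animals behind the cells is given in the sources used here, and no library without the fusion, without biotin or of total RNA was analysed here. The values are therefore levels in the recovered RNA, with no measure of enrichment. Nothing states that the replicates were separate cultures, so their spread may be technical.

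A miRNA gene is transcribed into a hairpin, which is cut to a short duplex with a 5p and a 3p strand. Usually 1 of these strands is kept by an Argonaute protein and guides it to target RNAs, largely through the seed, the bases 2 to 8 of the miRNA. The Sfmbt2 array is known as an imprinted cluster that is active from the paternal copy and strong in the placenta. Its members are built from simple repeats rich in UG on one strand and CA on the other, so many of them resemble each other closely. Close resemblance matters for the counts, since a read can match several names, and how such reads were assigned is not given in the sources used here.

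The RefSeq table of GRCm38, the assembly also called mm10 and named in the submitters' processing notes, holds 81 genes of these 4 numbers. Of these, 71 lie inside Sfmbt2 (chr2:10370440-10595253, plus strand), in a stretch of 51617 bases from chr2:10466663 to chr2:10518279. The table does not give exons, so the position within an intron was not checked. Along this stretch a miR-467, a miR-466 and a miR-669 gene follow each other directly 11 times, each time within 600 to 611 bases. The array holds 29 miR-669 genes, 23 of miR-466, 14 of miR-467 and 5 of miR-297. Between the array's genes lies 1 further RefSeq miRNA gene, Gm25285, which has no row of its own in the tables. The other 10 genes of the 4 numbers are scattered over chromosomes 3, 5, 7, 9, 10, 11 and 13.

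**Figure D1:**
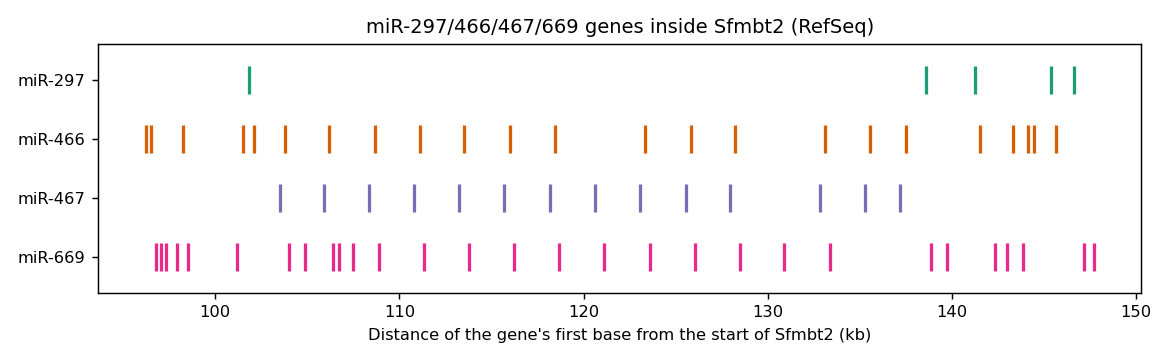
Position of the 71 genes inside Sfmbt2, as the distance in kb of each gene's first base from the start of Sfmbt2, with a row per number and a mark per gene. The miR-467, miR-466 and miR-669 marks alternate at regular steps in the middle of the array, and 4 of the 5 miR-297 genes lie near its far end.

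Mature sequences were found in RefSeq (GRCm38.p6) for 8 of the 70 names, all of single genes outside Sfmbt2. They are shown because they make the repeat structure of these names visible. Seeds are in capitals, and the sequences run 5′ to 3′.
miR-466k: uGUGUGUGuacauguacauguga
miR-466j: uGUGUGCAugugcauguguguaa
miR-669n: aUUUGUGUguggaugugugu
miR-467h: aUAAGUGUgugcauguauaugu
miR-466i-3p: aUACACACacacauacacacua
miR-467f: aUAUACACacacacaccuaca
miR-467g: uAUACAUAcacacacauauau
miR-466q: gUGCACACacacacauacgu
The first 4 are UG repeats, each with at least 68.2% G or U, and the last 4 are CA repeats, each with at least 70.0% A or C. The 8 seeds were all different. A hexamer of alternating UG or CA was searched on the strand of the miRNA, in the forms UGUGUG and GUGUGU, which overlap each other, and ACACAC and CACACA, which do so too. At least 1 form occurred in 8 of 8, and in 2.78% of the 1223 other listed names that have a sequence. The forms spell out the repeat already described for these names, so this contrast follows in part from their choice.

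Long stretches were shared within the UG and within the CA names but not between them. The names were grouped by these same letters, so this follows in part from the grouping. The longest run in common was 11 to 14 bases in the 6 pairs of CA names, 7 to 11 in the 6 pairs of UG names and 2 to 5 in the 16 mixed pairs. miR-466i-3p and miR-466q had a run of 14 bases in common, and miR-466i-3p and miR-467f one of 13. miR-467h and miR-466j shared 11. Between the UG and the CA names the letters were complementary: miR-466k could pair without a gap with 10 bases of each of miR-466i-3p, miR-467f and miR-467g. The longest run shared with a listed name of another number was 10 bases, between miR-466k or miR-466j and miR-1187. For miR-466k this was longer than the 8 bases it shared at most with any of the other 7. miR-467h shared its seed with miR-668-5p, and the other 7 seeds occurred in no other listed name with a sequence.

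The mature sequences of these 8 lie at chr3:85467396-85467418 (miR-466k), chr10:60960802-60960824 (miR-466j), chr3:115979905-115979924 (miR-669n), chr9:115381898-115381919 (miR-467h), chr13:17747552-17747573 (miR-466i-3p), chr11:69635419-69635439 (miR-467f, minus strand), chr5:34732872-34732892 (miR-467g, minus strand) and chr3:28419988-28420007 (miR-466q). The miR-467f gene overlaps Fxr2, that of miR-467g Grk4, that of miR-466i Cdk13, that of miR-669n Slc30a7, that of miR-466q Tnik and that of miR-466k the long noncoding RNA gene Gm31419, while those of miR-467h and miR-466j overlap no other gene of the table. The hairpin of miR-466k, the most abundant of the 8, shows how the repeat runs on outside the miRNA, whose 23 bases are in capitals.
Mir466k: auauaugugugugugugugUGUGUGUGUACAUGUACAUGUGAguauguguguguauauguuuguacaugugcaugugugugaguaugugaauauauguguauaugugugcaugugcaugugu
An alternating UG run of 23 bases crosses the start of the miRNA in this hairpin. The hairpin of Mir297-1 on chromosome 7, 1 of the 4 genes that miR-297a can come from, is less regular, with 6 bases in its longest alternating UG run.
Mir297-1: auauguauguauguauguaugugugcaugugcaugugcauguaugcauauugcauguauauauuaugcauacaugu

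The libraries held 3776893 miRNA counts (replicate 1) and 4122955 (replicate 2). Levels are given as CPM, counts per 1000000 miRNA counts of the library, and a count of 0 allows up to 3 counts, which is 0.794 CPM in replicate 1 and 0.728 CPM in replicate 2. Reads were not marked by molecular identifiers as far as the sources say, so intervals cover counting error only. The 7 epithelial marker miRNAs (miR-205-5p, miR-203-3p and the miR-200 family) were all counted in both libraries and summed to 105854 and 106177 CPM. The blood list summed to 6.09 and 17.7 CPM, the mesenchymal list to 24.9 and 101.1, the muscle list to 34.7 and 20.4, and the neural list to 113.9 and 101.6. The melanocyte marker miR-211-5p had 0 and 5 counts.

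Together the 70 names took 2.14% of the miRNA counts in replicate 1 (80684 counts, Wilson 95% interval 2.12% to 2.15%). In replicate 2 they took 2.09% (86035 counts, 2.07% to 2.10%), and the mean was 2.11% ± 0.0350 (SD, n = 2). On the log2 scale the sum differed by -0.034 between the libraries, and 62 of the 68 names counted in both differed by more in either direction. Lower sums were found for the lists of other imprinted or early-embryo clusters: the 52 listed names of the imprinted Dlk1-Dio3 cluster summed to 252.9 and 300.5 CPM, and the 4 listed names of the miR-290 to miR-295 cluster of early embryos to 16.7 and 11.2 CPM, against 21362 and 20867 CPM for the 70 names. No cluster known for high levels in skin was among these lists, and miR-27a-3p alone had a mean of 66788 CPM. With 1 group there is no test between conditions for any of these levels. An exact two-sided sign-flip test over 2 libraries cannot give a p below 0.5.

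miR-467 held the most of this sum, with 46.4% of it in replicate 1 and 49.9% in replicate 2 (48.2% ± 2.51, SD, n = 2). miR-669 followed with 22.9% and 21.9%, miR-466 with 18.5% and 17.2%, and miR-297 with 12.2% and 10.9%. The lead of miR-467 came from a single name. Without miR-467a-5p the order was miR-669 at 33.2%, miR-466 at 26.5%, miR-467 at 23.1% and miR-297 at 17.1%. In numbers of names the order was also miR-669 (28), miR-466 (25), miR-467 (13) and miR-297 (4).

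miR-467a-5p had 24923 counts in replicate 1 and 29501 in replicate 2, or 6599 and 7155 CPM (6877 ± 393.5, SD, n = 2). It was thereby the 30th name of all 1477 by mean level, between miR-29b-3p (7008 ± 70.2 CPM) and miR-200c-3p (6608 ± 363.4 CPM), a miRNA of the epithelial list. It alone took 30.9% and 34.3% of the counts of the 70 names, and had 5.80 ± 0.487 times the counts of the next member. Its name covers 10 RefSeq genes, Mir467a-1 to Mir467a-10, all inside Sfmbt2, which a mature read does not tell apart.

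Behind it came a group of names close together. miR-669a-5p, whose letter has 12 genes, had 4565 and 4798 counts (1209 and 1164 CPM). miR-467d-3p, from a single gene, had 4610 and 4702 counts (1221 and 1140 CPM). The order of these 2 changed between the libraries, and their ratio was 1.01 ± 0.0213.

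miR-297a-3p had 4633 and 4079 counts (1227 and 989 CPM), and miR-669o-3p had 3916 and 4541 (1037 and 1101 CPM). These likewise overlapped with each other. miR-467d-5p stood at 1021 and 976 CPM, below miR-669o-3p in both libraries. These 5 names after miR-467a-5p ranked from 90 to 101 among all names, and 5 of the 70 were among the 100 highest.

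From there the levels fell in small steps. miR-297a-5p had 3447 and 3409 counts, miR-466c-5p 2827 and 2943, and miR-466c-3p 2321 and 2426, each below the one before it in both libraries. miR-467e-5p had 2002 and 2307 counts and miR-466e-3p 2101 and 1850, in opposite orders in the libraries. The next were miR-669d-5p (1933 and 1484 counts), miR-669b-5p (1742 and 1659) and miR-297c-5p (1617 and 1738). The range of each over the libraries overlapped with that of the name before it. miR-669d-5p was still below miR-466e-3p in both libraries. miR-466g with 1408 and 1369 counts closed the 15 most abundant, which took 82.0% ± 0.458 of the counts of all 70 (SD, n = 2). The first 5 alone took 54.1% ± 1.76.

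The rest formed a long tail. An average of 100 counts was reached by 48 of the 70 names, while 358 of all 1477 reached it. By mean level, 5 names had at least 1000 CPM, 26 had 100 to 1000, 29 had 10 to 100, and 10 lay under 10 CPM. The median was 76.7 CPM over the 70 names and 4.63 CPM over the other 1407. Next below miR-466g were miR-467c-5p (1122 and 1555 counts), miR-466k (828 and 918), miR-669l-5p (814 and 846), miR-466a-5p (721 and 814), miR-466h-5p (606 and 917) and miR-466f (551 and 824). miR-466q, with 1 count in replicate 1 and 0 in replicate 2, was the lowest and did not rise above what a count of 0 allows.

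**Figure D2:**
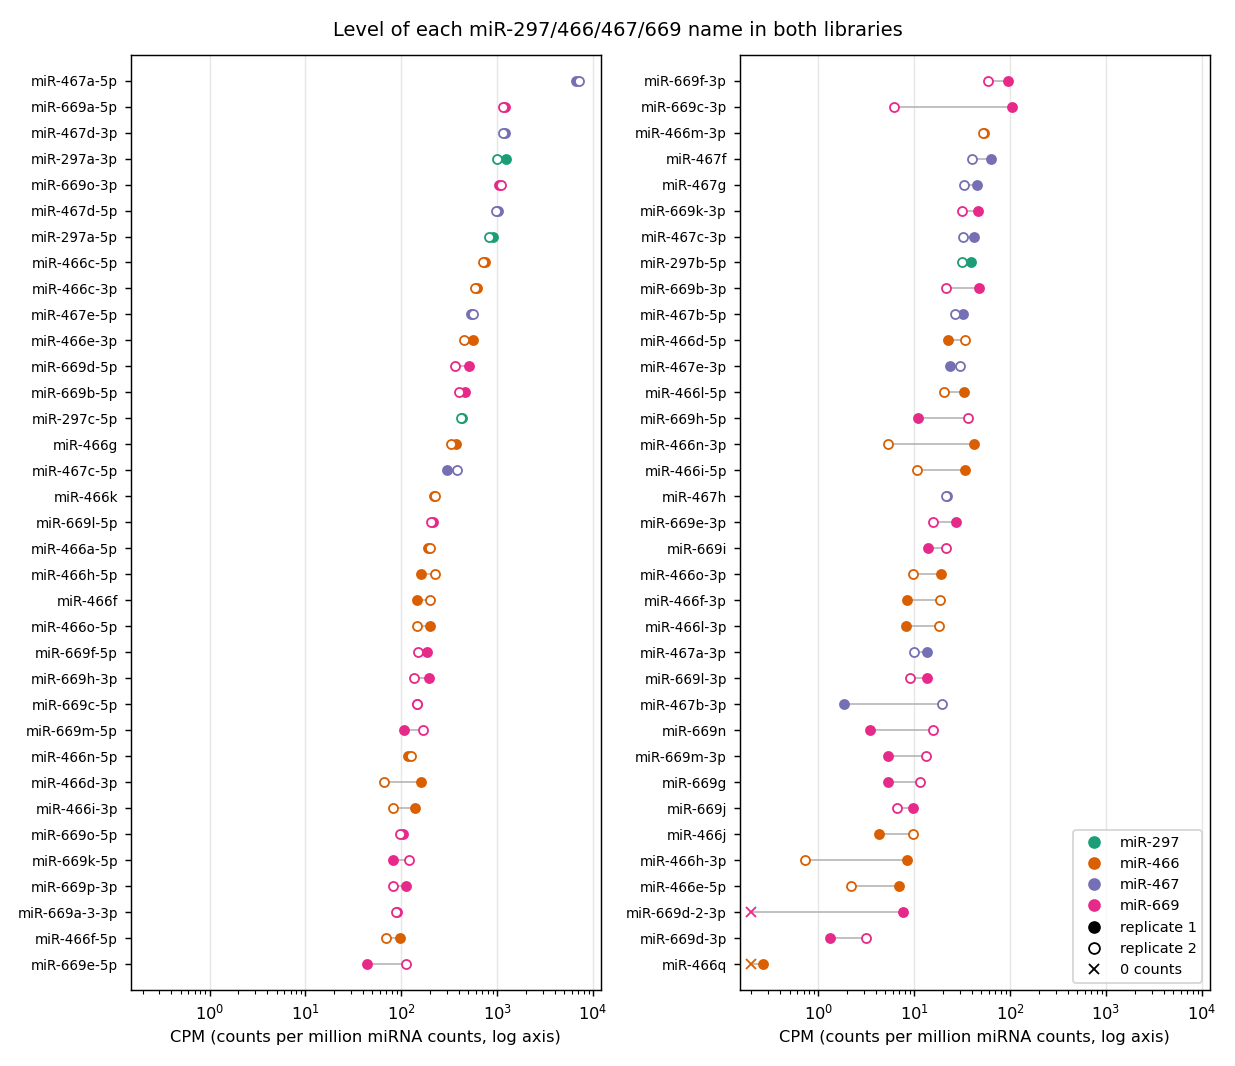
Level in CPM (log axis) of each of the 70 names, in order of the mean, with replicate 1 as filled and replicate 2 as open circles, coloured by number. A cross at the left edge stands for 0 counts. miR-467a-5p stands apart at 6599 and 7155 CPM, the replicates lie close together for the abundant names, and they separate towards the end of the tail.

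Most counts belonged to names with genes in Sfmbt2. All 70 names matched at least 1 RefSeq gene. Names with every gene inside Sfmbt2 (56 names) took 86.3% of the members' counts in replicate 1 and 87.8% in replicate 2. Another 5 names, those of miR-297a and miR-466f, have genes both inside and outside, and took 11.2% and 10.1%. The 9 names with genes only outside took 2.48% and 2.09%. Of these 9, miR-466k with 220.9 ± 2.42 CPM and miR-466i-3p with 111.1 ± 40.9 CPM were the highest. The others were miR-467f with 51.4 ± 15.7 CPM, miR-467g with 39.1 ± 8.33, miR-466i-5p with 22.4 ± 16.6, miR-467h with 21.6 ± 0.0880, miR-669n with 9.60 ± 8.71, miR-466j with 6.97 ± 3.86 and miR-466q. Their median was 22.4 CPM, against 83.3 CPM for the 56 names inside Sfmbt2. How many of the reads under these names came from near-identical array genes was not tested.

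The number of genes behind a letter went only loosely with its level. Over the 34 letter names with a gene inside Sfmbt2 and a row in the tables, both arms summed, Spearman's rho of gene number and mean CPM was 0.41, and 0.34 without miR-467a. These letters share libraries and, in part, sequence, so the value is a description only. The 8 letters with several genes had a median of 858.8 CPM and ranged from 96.4 (miR-669p) to 6889 (miR-467a). The 26 letters with a single gene had a median of 191.1 and ranged from 8.17 (miR-669j) to 2179 (miR-467d). Thus miR-467d, with 1 gene, was recovered at 1.71 ± 0.0262 times the level of miR-669a, with 12 (SD, n = 2, listed arms summed). The sums are not alike, since the 3p arm of miR-669a was listed for 1 of its genes only, as miR-669a-3-3p. On the 5p arm the order was reversed, with a mean of 1186 CPM for miR-669a-5p and 998 CPM for miR-467d-5p. miR-669o, also with 1 gene, reached 1171 ± 40.8 CPM, while miR-466f, with 4, had 268.9 ± 26.5.

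**Figure D3:**
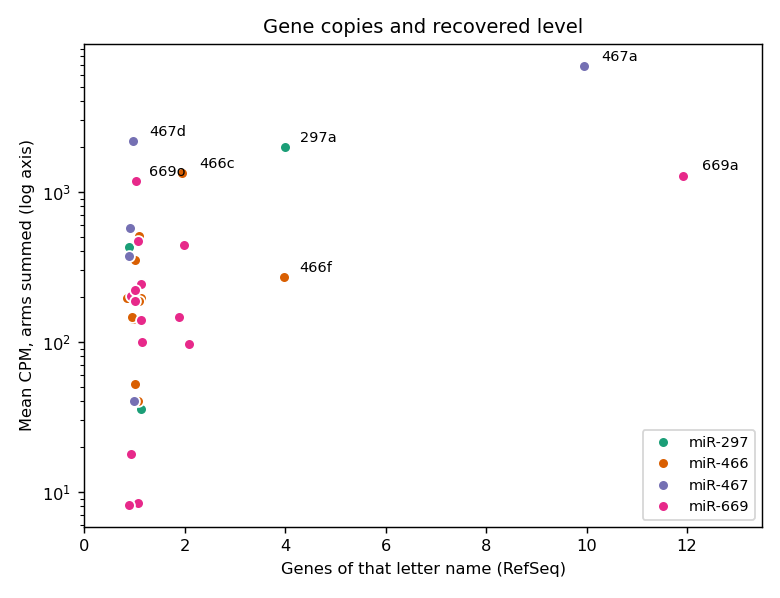
Mean CPM of each letter name (arms summed, log axis) against its number of RefSeq genes, for the 34 letter names with a gene inside Sfmbt2, coloured by number, with points shifted slightly sideways where they coincide. Single-gene letters cover the range from 8.17 to 2179 CPM, and miR-467a with 10 genes lies above all of them.

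For 2 letters with genes no row was listed. miR-466b has 8 genes and miR-466p has 1, all inside Sfmbt2, and neither appears in either table in any arm. The other 42 letters with a gene were listed. miR-669a, with 12 genes, appeared in the 5p arm as miR-669a-5p and in the 3p arm only as miR-669a-3-3p (339 and 367 counts), and miR-669p only as miR-669p-3p (421 and 335 counts). Whether reads of the unlisted letters were counted under a name of the same sequence was not tested.

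Counted by name, the strand recovered differed between the hairpins. Of the 58 names that give an arm, 29 are 5p and 29 are 3p, and the 5p names took 71.1% of their counts in replicate 1 and 74.6% in replicate 2 (72.8% ± 2.46, SD, n = 2). Without miR-467a-5p the 5p share was 58.8%. By number it was 87.4% ± 0.970 for miR-467, 64.4% ± 1.44 for miR-669, 54.7% ± 2.45 for miR-297 and 52.2% ± 3.17 for miR-466. The 12 names without an arm took 4.31% ± 0.106 of all members' counts.

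Both arms were listed for 25 hairpin names. In both libraries 5p reads outnumbered 3p reads in 18 of them and 3p reads led in 7, and the leading arm changed in none of the 25. In 10 a single arm held more than 90% in both libraries. miR-467a was the most one-sided of the abundant ones: miR-467a-3p had 51 and 41 counts against 24923 and 29501 of miR-467a-5p. miR-466e leaned the other way and less far, with a 5p share of 1.22% and 0.484%. The miR-669o hairpin gave 9.18% and 8.17% from its 5p arm, and miR-467e gave 95.7% and 94.9%.

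The other hairpins near the top gave both strands in like amounts. The 5p share of miR-467d was 45.5% (Wilson 95% interval 44.5% to 46.6%) in replicate 1. In replicate 2 it was 46.1% (45.1% to 47.2%). miR-297a had 42.7% (41.6% to 43.7%) and 45.5% (44.4% to 46.7%), and miR-466c had 54.9% and 54.8%. In counts this meant 1.18 ± 0.0189 times as many reads of miR-467d-3p as of miR-467d-5p, 1.27 ± 0.104 times as many of miR-297a-3p as of miR-297a-5p, and 1.22 ± 0.00347 times as many of miR-466c-5p as of miR-466c-3p. The counts listed under miR-467a and miR-467d, from genes of the same array and number, therefore differed widely in their split between strands. No mature sequence of these names was found, and how reads matching several names were assigned is not given. Whether reads from the miR-467a genes were counted under miR-467d, or the reverse, was not tested. The contrast is therefore between names as counted, and may not hold for the hairpins themselves. Read shares of strands can be moved by ligation and PCR, whose efficiency depends on the sequence.

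Shares were less stable in hairpins with fewer counts. miR-669c gave 58.1% from its 5p arm in replicate 1 and 96.0% in replicate 2, miR-467b 94.6% and 57.9%, and miR-466n 73.9% and 95.9%. In miR-669c and miR-466n the difference lay in the 3p arm. miR-669c-5p had 144.0 and 146.3 CPM and miR-466n-5p 117.8 and 125.6, and neither passed the exact binomial test between the libraries (adjusted p = 0.846 and 0.386). In miR-467b it was also the 3p arm, with 7 and 80 counts, beside 122 and 110 of the 5p arm.

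**Figure D4:**
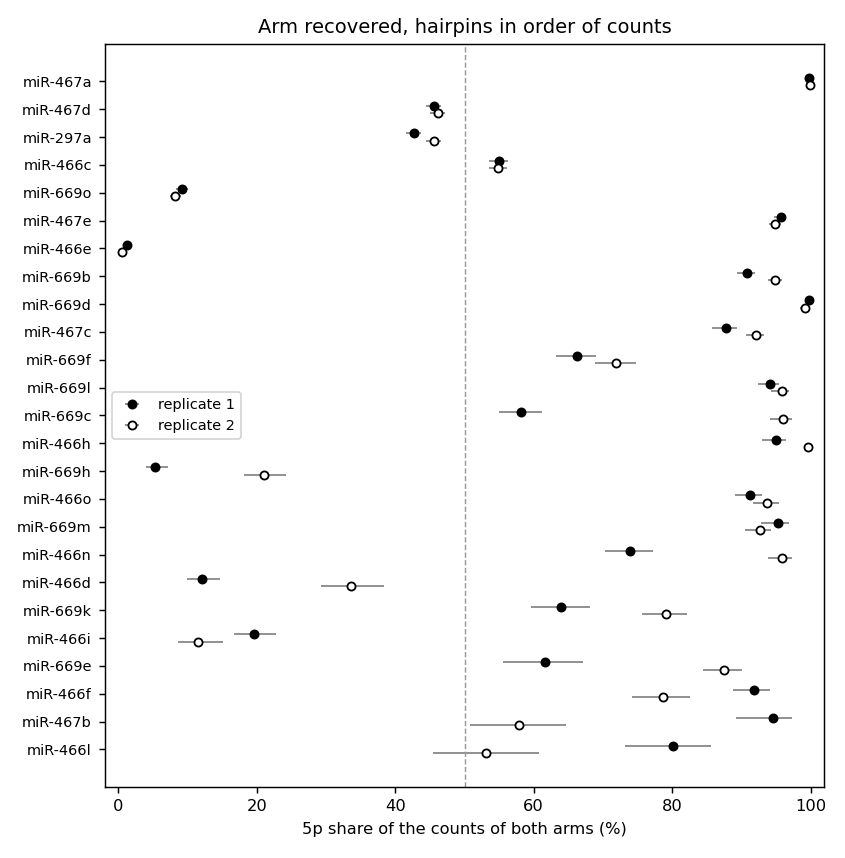
Share of the 5p arm in the counts of both arms (%), for the 25 hairpin names with both arms listed, from the most counts at the top to the fewest, with replicate 1 filled and replicate 2 open and Wilson 95% intervals as bars. The abundant miR-467a lies near 100%, miR-467d, miR-297a and miR-466c near the dashed line at 50%, and each hairpin has both replicates on the same side of that line.

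The replicates agreed in which of these names they held. Only 2 of the 70 names (2.86%) were at 0 in a library, against 489 of the other 1407 (34.8%). Part of this follows from the higher levels of the 70 names. At a mean of 10 to 100 counts, 1 of 20 of them and 148 of 624 others (23.7%) were at 0 in a library. Inside this range the counts of members and others were not matched. Whether detection differed at equal counts was therefore not tested. The 2 names were miR-669d-2-3p, with 29 counts in replicate 1 and 0 in replicate 2, and miR-466q. At least 10 counts in both libraries were recorded for 64 of the 70 names (91.4%) and for 706 of all 1477 (47.8%).

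Names that averaged 10 counts or more were tested for a difference between the libraries. The test was an exact binomial test, two-sided, against the ratio of the library totals, with Benjamini-Hochberg adjustment over all 1002 such names. This compares 2 libraries of 1 group on reads, not conditions. Among all names 70.6% were called at an adjusted p under 0.05. Of the 68 tested names of the 4 numbers, 46 (67.6%) were called, a share near that background. Of these, 28 (41.2%) were lower and 18 (26.5%) higher in replicate 2, where the background was 34.3% lower and 36.2% higher. With at least a 2-fold ratio also required, 17 (25.0%) were called against a background of 44.0%. Every count was also divided by 20.7, the average ratio of variance to mean between the libraries over the 746 names averaging 10 to 300 counts. This left 1 of the 68 called, miR-669c-3p (adjusted p = 0.00111, exact binomial test). Members averaging 10 to 100 counts kept so few divided counts that they could hardly be called. The divisor was also used for names above the range it was taken from. Over all names 16 of 1001 tested (1.60%) were called on the divided counts, so the share of the 68 was again near the background. The other p-values for single names allow for counting error only.

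The median log2 ratio of replicate 2 over replicate 1 was -0.098 over the 68 names and -0.014 over all 1002. Its median size without sign was 0.46 over the 68 and 0.83 over all 1002. Within ranges of mean count, not matched further, the sizes were close. From 100 to 1000 counts the SD of the log2 ratio was 0.89 in 32 members and 0.79 in 167 others, and from 1000 counts 0.20 in 16 members and 0.30 in 143 others. At 10 to 100 counts it was 1.76 in the 19 members and 2.16 in the 476 others that were counted in both libraries.

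**Figure D5:**
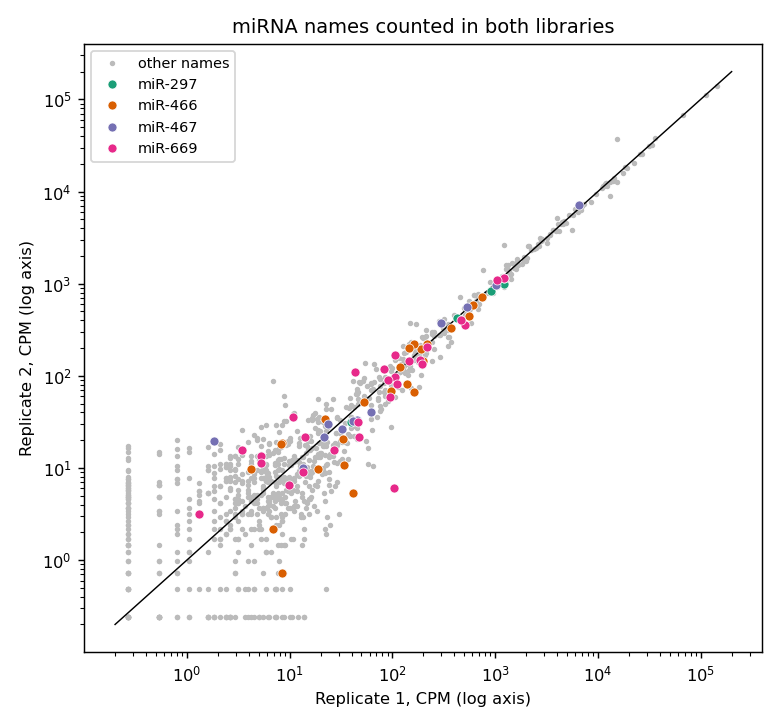
CPM in replicate 2 against replicate 1 (log axes) for every name counted in both libraries, with the 68 names of the 4 numbers coloured and the others in grey, and the line of equal levels in black. The coloured points of the most abundant names lie near the line, miR-466d-3p (162.0 and 66.5 CPM) lies below it, and miR-669c-3p is the coloured point farthest below it, at 103.8 and 6.06 CPM.

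By number, replicate 2 was lower for miR-297 (2607 and 2269 CPM), miR-466 (3962 and 3596 CPM) and miR-669 (4884 and 4580 CPM) and higher for miR-467 (9909 and 10422 CPM). The gain of miR-467 lay in miR-467a-5p, with a log2 ratio of 0.12 (exact 95% interval 0.092 to 0.14, adjusted p = 7.47e-20 in the exact binomial test). Without it miR-467 stood at 3311 and 3266 CPM. Among the other abundant names, miR-297a-3p fell by 0.31 on the log2 scale in replicate 2, miR-466e-3p fell by 0.31 and miR-669d-5p fell by 0.51. All 3 were past the threshold (largest adjusted p = 8.74e-11, exact binomial test), and none was on the divided counts. miR-669a-5p (-0.055), miR-466c-5p (-0.068), miR-466c-3p (-0.063) and miR-297c-5p (-0.022) did not pass it.

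Among names counted in both libraries, the largest differences were mostly in minor strands. miR-669c-3p, the 3p strand of a hairpin whose 5p strand leads, had 392 counts and 25, a log2 ratio of -4.10 (exact 95% interval -4.74 to -3.51, adjusted p = 2.23e-91, exact binomial test). miR-466h-3p had 32 counts and 3, and miR-466n-3p had 157 and 22, with log2 ratios of -3.54 and -2.96. In the other direction miR-467b-3p rose from 7 counts to 80, a log2 ratio of 3.39, miR-669n from 13 to 65 (2.20) and miR-669h-5p from 41 to 149 (1.74). Of these 6, all but miR-669n belong to a listed hairpin whose other arm was the more abundant in both libraries. All but miR-669c-3p also averaged 10 to 100 counts, where the SD of the log2 ratio was 1.76 in members and 2.16 in other names. Whether minor strands differed more than other names of like counts was not tested. Among names that averaged 100 counts or more, miR-466d-3p (612 and 274 counts) and miR-669b-3p (177 and 89) fell by 1.29 and 1.12, and miR-669e-5p rose by 1.34 (165 and 457 counts).

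In each number both called and uncalled names were found. miR-466 had 18 of 24 tested names called, 12 of them lower in replicate 2. miR-669 had 20 of 27, 11 of them lower, miR-467 had 6 of 13, 3 of them lower, and miR-297 had 2 of 4, both lower. Over all 1002 tested names 70.6% were called, with 34.3% lower and 36.2% higher in replicate 2. Whether any number differed from these shares was not tested. Scaled by library totals, the log2 ratios nearest to 0 were those of miR-467h, miR-669a-3-3p and miR-466m-3p. Their counts were 82 and 89, 339 and 367, and 199 and 214, and their ratios -0.0083, -0.012 and -0.022. DESeq2 size factors raise all ratios alike, which turns those of miR-467h and miR-669a-3-3p positive, the latter to 0.0063. These 3 names were picked out after their values were seen.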

How the data were processed

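The members and lists were chosen with earlier results of these data known. Each library has 1 deposited table without a header, which pairs miRNA names with raw counts from the authors. Cutadapt, Novoalign and mm10 are named in the submitters' processing notes, without role or version. The miRNA reference and the handling of PCR copies, of reads matching several names and of chimeric reads are not given in the sources used here. A name missing from a table was set to 0. Rows that name no miRNA were left out (0.00265% of counts in replicate 1 and 0.000218% in replicate 2).

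CPM, Wilson and Clopper-Pearson 95% intervals and the exact binomial test were computed in Python 3.11.15 (scipy 1.17.1, numpy 2.4.6, pandas 2.3.3, matplotlib 3.10.9 for figures). edgeR 4.0.16 (TMM) and DESeq2 1.42.0 size factors (R 4.3.3) served as other scalings. The simulated counts used to try the exact binomial test vary by counting error only, so that check does not give the error rate on these libraries, which differ by more.

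Genes were matched to names through symbols and synonyms of the RefSeq table (70 of 70 names), and sequences by name (8 of 70). Shares by seed and sums over identical mature sequences were therefore not made. The rule for naming took the 15 highest members, every other that averaged 100 counts, the 3 largest ratios in each direction, up to 2 names at 0 in each library, and both arms of the 3 hairpins with the most counts. Beyond it, members are named to give every name with genes outside Sfmbt2.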

Additional observations from a re-analysis of the deposited data

How the results depend on the processing

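The share of the 4 numbers in all miRNA counts (2.11%) was 2.46% in a total without miR-31-5p, 2.06% with names that have a gene inside Sfmbt2 only, and 1.42% without the most abundant member. Without that member the shares by number were 17.1% (miR-297), 26.5% (miR-466), 23.1% (miR-467) and 33.2% (miR-669), and the 5p share was 58.8%. When all of a name's genes had to lie inside Sfmbt2, the share from Sfmbt2 was 87.1% in place of 97.7%. Members found in 1 library only numbered 1 when at least 5 counts in the other were asked for. Members differing between the libraries numbered 30 from a mean of 100 counts, where only 48 could be tested, against 70.9% of all names tested there. With a 2-fold ratio also asked for they numbered 17 of 68, against 44.0% of all names. Division by the mean variance-to-mean index (20.7), a divisor taken from the same libraries, left 1 of 68 (miR-669c-3p), against 1.60% of all names. Members averaging 10 to 100 counts could hardly be called after this division. With DESeq2 size factors, TMM factors, an adjusted p under 0.01 or no count minimum the number was 44 to 47, of 68 tested or 70 without a minimum. Over all names 61.1% to 70.7% were called in these settings. Members with at least 10 counts (66.5 per library) stayed within 1.5 times at the other minimums tried.

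Leaving out each library gave 2.09% to 2.14% for the total share, 10.9% to 12.2%, 17.2% to 18.5%, 46.4% to 49.9% and 21.9% to 22.9% by number, 71.1% to 74.6% for 5p arms, 97.5% to 97.9% for Sfmbt2 and 66 to 67 names with at least 10 counts; each is the value of the other library, without a test. Of the 54 named members' log2 ratios, 35 were past the threshold, as were 70.6% of all 1002 names tested. On the divided counts 34 of these 35 no longer were, 2 of them at 0 in a library after division. With DESeq2 size factors 1 newly passed. Among these 54 the sign turned in 1 ratio that was not past the threshold, that of miR-669a-3-3p (-0.012). It was 0.0063 with DESeq2 size factors and 0.043 on the divided counts. Sums over names with identical mature sequences, and the share by seed, were not run, since 8 of 70 names had a sequence. No paired analysis was possible because both libraries belong to a single group. In members with a mean of 10 to 100 counts, log2 ratios had an SD of 1.76. The index was 20.7, where counting error alone would put it at 1. The sources of this spread were not tested.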

Other observations

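The variance-to-mean index between the libraries, which would be 1 if reads alone set the spread, was compared among names averaging 10 to 300 counts. It averaged 28.8 over the 33 names of the 4 numbers in this range and 20.7 over all 746 names there. Without miR-669c-3p it averaged 19.0 over the remaining 32. The medians ran the other way, with 11.5 in the 33 names and 15.4 over all 746. The higher average of these names thus rested on miR-669c-3p.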
